A study of Mus musculus with 2 samples.

Results

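The genes described here make nitric oxide (NO), make or clear its inhibitor asymmetric dimethylarginine (ADMA), or form the membrane core of NADPH oxidases. They were Nos1, Nos2, Nos3, Ddah1, Ddah2, Prmt1, Agxt2, Cyba, Cybb and Nox4, taken as every non-control spot that the scanner files name by 1 of these symbols. The 10 genes had 20 probes on 39 spots, out of 34881 gene names, 55681 probes and 59305 spots on each array. RNA came from the hippocampus of outbred ICR mice, taken 8 weeks after surgery that was either a sham operation or 5/6Nx. The latter usually stands for 5/6 nephrectomy, in which most kidney tissue is taken out to model chronic kidney failure. Each group was 1 sample on 1 array, both on 1 slide and read in 1 scan, so nothing could be tested between groups and each difference describes these 2 arrays. The labels leave the number of animals behind each RNA unstated, name no age or sex, and say neither how the tissue was dissected nor whether blood was flushed from it. Their protocol for RNA extraction mentions cells, while the source is given as hippocampus.

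NO synthases convert arginine to citrulline and NO. Nos1 is the neuronal enzyme, found in the hippocampus mainly in some inhibitory interneurons and at lower levels in pyramidal cells, Nos2 is the inducible enzyme of immune and glial cells, and Nos3 is the endothelial enzyme that relaxes vessels. ADMA is released when proteins methylated on arginine by enzymes such as Prmt1 are broken down; it competes with arginine at the NO synthases and is known to build up in the blood in kidney failure. Ddah1 and Ddah2 are the dimethylarginine dimethylaminohydrolases, of which Ddah1 is the main ADMA-degrading enzyme, and Agxt2 is a mitochondrial aminotransferase, best known from liver and kidney, that removes ADMA by transamination. NADPH oxidases make superoxide or hydrogen peroxide. Cybb encodes NOX2 (gp91phox), the catalytic subunit of phagocytes and microglia, Nox4 encodes a catalytic subunit of vessel and kidney cells, and Cyba encodes p22phox, which both need.

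What the arrays read is 60 bases of each transcript, and for 6 of the genes a probe away from the end of the message is shown, since the values of those genes rest on it or are checked against it. The sequences are those of the scanner files, 5′ to 3′, with no base marked, and the positions in brackets are the probe's place on mm9 and its strand.
Nos1 (chr5:118402831-118402890, plus strand): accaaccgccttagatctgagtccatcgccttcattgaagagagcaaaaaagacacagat
Nos3 (chr5:23889636-23889695, plus strand): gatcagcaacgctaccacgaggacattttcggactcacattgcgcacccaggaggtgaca
Ddah1 (chr3:145516152-145516211, plus strand): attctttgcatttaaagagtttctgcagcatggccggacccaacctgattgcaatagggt
Prmt1 (chr7:52234092-52234151, minus strand): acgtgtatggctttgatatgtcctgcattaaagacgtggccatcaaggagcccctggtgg
Cyba (chr8:124950893-124951161, minus strand): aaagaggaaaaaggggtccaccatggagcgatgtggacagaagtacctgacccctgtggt
Nox4 (chr7:94472458-94487478, plus strand): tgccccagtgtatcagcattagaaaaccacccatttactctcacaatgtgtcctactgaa
The Cyba and Nox4 probes cover 269 and 15021 bases of the genome, so each spans at least 1 intron and reads spliced RNA. None of the 6 shares a run of 20 bases with a probe of another gene (0 genes). Exon and UTR annotation on mm9 was not used here.

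On the array of the 5/6Nx sample the signals of Nos1, Ddah1 and Ddah2 were lower than on the sham array, by 0.58 to 0.74 on the log2 scale, Prmt1 was lower by 0.30, and Nos3 and Cyba lay slightly above sham. Differences are log2 of 5/6Nx over sham after each array was scaled to its 75th percentile, 1452 in sham and 1263 in 5/6Nx, so an equal raw signal gives a difference of 0.20. Of the 20 probes, 18 were well above background on both arrays, and all 10 genes had at least 1 such probe. None of the 10 genes differed by 2-fold or more in either direction (0 higher, 0 lower), where 8.18% of the 25917 measured genes did (4.89% higher, 3.29% lower). At 1.5-fold, Nos1 and Ddah2 were lower and 0 genes higher, or 2 of 10, against 22.6% of all genes (8.92% lower, 13.7% higher), a share of members close to the background. Which members passed 1.5-fold changed with the processing, as given in the last section. The median of the 10 genes was -0.17, with 6 below 0 and 4 above, beside 0.05 over all measured genes, whose SD was 0.60. Of all measured genes 55.4% lay above 0 at this scaling. The members' median changed sign with the background correction, to 0.02 with normexp and 0.03 without background subtraction. Under scaling to 8 spike-in probes the all-gene median moved to -0.17 and under scaling to the array medians to -0.10, and small positive values below change sign under these scalings where said.

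**Figure D1:**
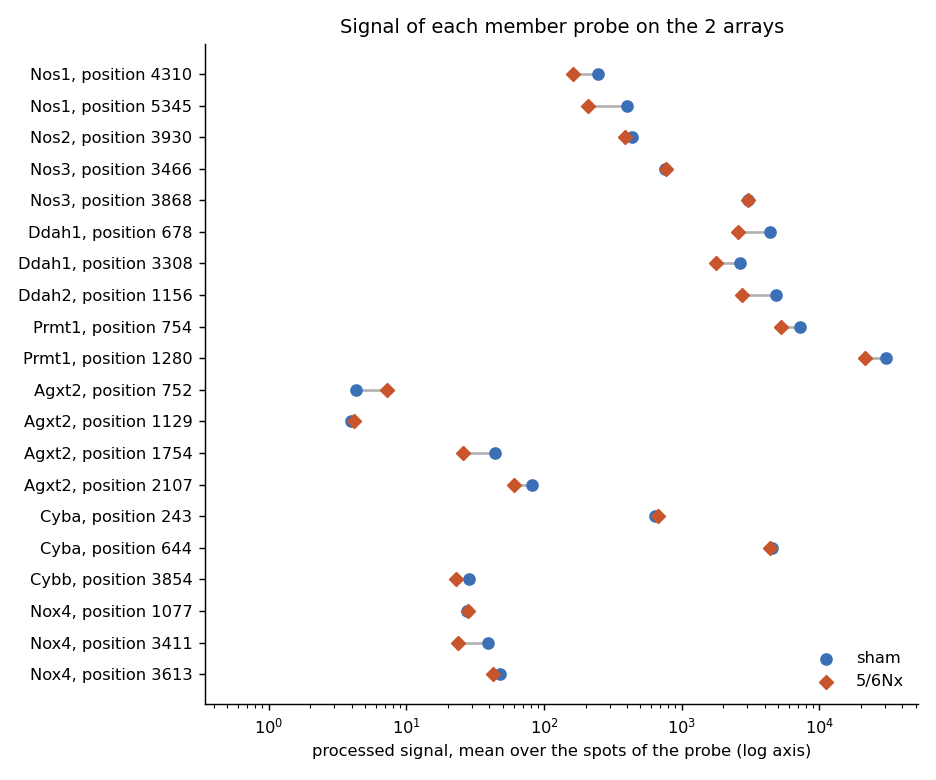
Processed signal of the 20 probes on the sham array (circles) and the 5/6Nx array (diamonds), on a log axis, as means over the spots of a probe and before scaling between arrays; positions are counted along the transcript. The 5/6Nx marks of Nos1, Ddah1, Ddah2 and Prmt1 lie to the left of sham, and the Agxt2 probes at positions 752 and 1129 were not well above background in sham or 5/6Nx.

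Nos1, the neuronal NO synthase, had 2 probes of 1 spot each. The probe at transcript position 5345 read 399 in sham and 208 in 5/6Nx, a difference of -0.74 with an error of 0.21 by the scanner's own error model. The printed probe at position 4310 read 245 in sham and 163 in 5/6Nx, or -0.39 with an error of 0.21. Both probes were thus lower in 5/6Nx, though by unequal amounts. Over 7995 genes with several measured probes the median SD between probes of a gene was 0.20, and for Nos1 it was 0.25. The probe at position 5345, the brighter, stands for the gene in counts. At or below its value lay 6.10% of all measured genes, and 15.3% were at least as far from 0. Among genes of like signal (class 2 of 5 from dim to bright), 20.4% were at least as far from 0. In bulk tissue, fewer cells of a type and less RNA per cell cannot be told apart.

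Nos1 neurons are mostly inhibitory, and the list of GABAergic interneuron markers was also lower. Of its 15 genes 14 were measured, 3 were at least 2-fold lower and 0 higher, 13 lay below 0, and the median was -0.60. The largest differences were those of the neuropeptide genes Cort, at -1.17, and Tac1, at -1.16, while Chodl did not pass the background call on any array. The summed signal of the list was 474506 in sham and 270162 in 5/6Nx. Cck, named for its part in the sum and not by rule, alone gave 263177 and 142187 of these. Like the sums of other lists below, these are signals before scaling between arrays. Nos1 minus the median of these markers was -0.14, with 5 markers below it and 9 above, so its difference was within their range. The part of these cells in the Nos1 difference was not tested. Markers of hippocampal pyramidal and granule neurons had a median of 0.23 over 12 genes, 9 of them above 0, with Wfs1 at -1.12 and Dsp at 0.58.

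Nos2, the inducible enzyme, was near equal on the arrays. Its 1 probe read 426 and 446 on its 2 sham spots and 435 and 343 on its 2 spots of the 5/6Nx array. The spots of the arrays overlap, and the difference of 0.03 was below its standard error of 0.17 from the spots. Its sign was negative under 5 of 10 processing alternatives, spike-in and median scaling among them, with a range of -0.19 to 0.06.

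Nos3, the endothelial enzyme, lay slightly above sham. The printed probe at position 3466 had 10 spots on each array, which read 752 ± 28.3 (SD over 10 spots, 693 to 799) in sham and 767 ± 26.6 (726 to 817) in 5/6Nx. These unscaled ranges overlap. After scaling, all 10 spots of the 5/6Nx array lay above all 10 sham spots, with a difference of 0.23. Its standard error from the spots was 0.02, which covers the spread within an array and not that between animals or the choice of scaling. As an equal raw signal gives 0.20 at this scaling, the separation of the spots depended on the scaling. The probe at position 3868, which stands for the gene, read 3028 in sham and 3034 in 5/6Nx, a difference of 0.20 that became -0.01 under spike-in scaling. It shares 20 bases, on the opposite strand, with a probe of the neighbouring gene Atg9b, an autophagy gene named for this overlap and not by rule, which read 85.7 in sham and 174 in 5/6Nx (1.22). The endothelium list had a median of 0.09 over 15 genes, 11 of them above 0 and none 2-fold apart (0 higher, 0 lower), with Slco1a4 at 0.49 and Cdh5 at -0.32. Nos3 was 0.11 above this median, with 10 endothelial markers below it and 5 above. These counts use the brightest probe of each gene, and the other probe of Vwf (0.28) was at 1.71.

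Within the NO synthases, a contrast between genes on the same arrays does not depend on a scaling factor. Nos1 minus Nos3 was -0.94 with a scanner error of 0.29, and it ran from -1.09 to -0.60 over 10 alternatives. Nos2 minus Nos3 was -0.18 with an error of 0.29 and a range of -0.30 to -0.03. The contrast of Nos1 with Nos3 thus exceeded its technical error, and that of Nos2 with Nos3 did not. No error between animals can be given for either.

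**Figure D2:**
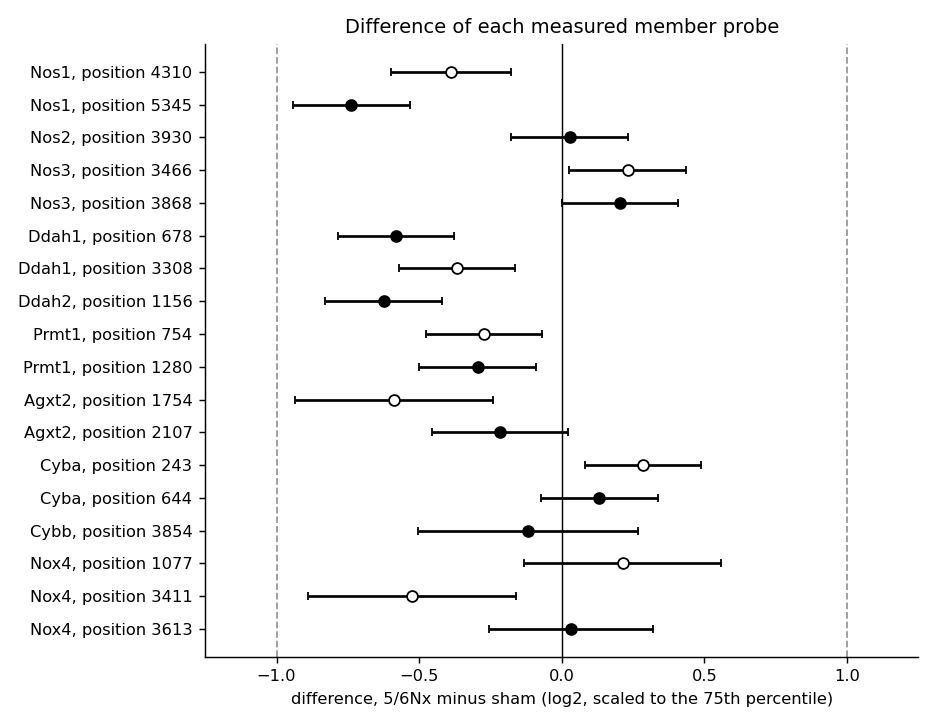
Difference of each of the 18 measured probes, 5/6Nx minus sham on the log2 scale, with bars of 1 scanner error either side; filled circles are the probes that stand for a gene, open circles the other probes, and dashed lines mark 2-fold. All probes of Nos1, Ddah1, Ddah2 and Prmt1 lie below 0 by more than their bars and none reaches 2-fold; each filled circle above 0 falls below 0 under spike-in scaling.

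Of the genes that set ADMA, Prmt1, the main enzyme that methylates proteins to give ADMA, had 2 probes in near agreement. The printed probe at position 754 read 7270 in sham and 5233 in 5/6Nx (-0.27), and the probe at position 1280 read 30423 and 21569 (-0.30), each with an error of 0.20. The difference kept its sign under all 10 alternatives, from -0.51 to -0.21. As 49.4% of all measured genes, and 36.3% of those of like signal (class 5 of 5), were at least as far from 0, it was of ordinary size on these arrays.

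Ddah1, the main enzyme of ADMA breakdown, was lower at both of its probes. The printed probe at position 678 read 4389 ± 125 over 10 sham spots (4245 to 4597) and 2554 ± 69.7 over 10 spots of the 5/6Nx array (2421 to 2648). No spot of the 5/6Nx array reached the lowest sham spot, before or after scaling. The difference was -0.58, with a standard error of 0.02 from the spots and 0.20 by the scanner's error model, just short of 1.5-fold. The probe at position 3308 (chr3:145556803-145556862, plus strand) read 2637 in sham and 1779 in 5/6Nx (-0.37). The probes shared their direction, and over the 10 alternatives the gene ran from -0.80 to -0.47. At least as far from 0 were 22.9% of all measured genes and 17.6% of those of like signal (class 4 of 5 from dim to bright).

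Ddah2, its relative, had 1 probe of 1 spot (chr17:35198877-35198936, plus strand), which read 4814 in sham and 2717 in 5/6Nx. The difference of -0.62 with an error of 0.20, or 1.54-fold, ran from -0.84 to -0.58 over the alternatives. At least as far from 0 were 20.3% of all measured genes and 15.1% of those of like signal (class 4 of 5). Ddah1 and Ddah2 thus differed by near the same amount, with Ddah1 minus Ddah2 at 0.04 and an error of 0.29. Ddah1 minus Prmt1 was -0.29 with an error of 0.29 (range -0.35 to -0.19), and Ddah2 minus Prmt1 was -0.33 with an error of 0.29 (range -0.39 to -0.32). The degrading enzymes were therefore lower than Prmt1 in every alternative run, by about 1 technical error.

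Neither Ddah gene lay near the median of the marker list it was set beside. Ddah1 minus the astrocyte median of 0.05 was -0.63, with 1 of 10 markers below it. In that list Gfap, an intermediate filament of astrocytes, was at 1.12 and the water channel Aqp4 at -0.83. Ddah2 minus the endothelial median was -0.72, with 0 of 15 markers below it. The interneuron list, beside which neither gene was set, had a median of -0.60, near both Ddah1 (-0.58) and Ddah2 (-0.62). The part of any cell type in these 2 differences was not tested.

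Agxt2 was dim. The probes at positions 752 and 1129 were not well above background in sham or 5/6Nx and give no difference. The probe at position 1754 read 44.3 in sham and 25.7 in 5/6Nx (-0.59, error 0.35), and the probe at position 2107 read 81.2 and 60.9 (-0.22, error 0.24). The lowest signal called well above background was 17.9 in sham and 18.8 in 5/6Nx, so these probes were within a few fold of the detection limit. The value of -0.22, which stands for the gene, was smaller than its error and ran over the 10 alternatives from -0.43 under spike-in scaling to 0.01 without background subtraction.

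The NADPH oxidase genes lay close to 0. Cyba, the p22phox subunit, read 636 in sham and 674 in 5/6Nx at the printed probe (0.28) and 4552 and 4339 at position 644 (0.13), each with an error of 0.20. The value at position 644 stands for the gene and was negative under median and spike-in scaling (lowest -0.09). Cybb, the NOX2 subunit, had 1 probe (chrX:9013216-9013275, minus strand) that read 28.4 in sham and 22.8 in 5/6Nx. Its difference of -0.12 had an error of 0.38 and ran from -0.36 to 0.13. At this signal a difference in Cybb of that size was not detectable.

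Nox4 had 3 probes near the detection limit, and they did not share a direction. The printed probe at position 1077 read 27.6 in sham and 27.9 in 5/6Nx (0.21, error 0.34). Position 3411 read 39.3 and 23.7 (-0.52, error 0.36), and position 3613 read 48.1 and 42.8 (0.03, error 0.29). The SD between the probes was 0.38, and the sign of the gene's value changed under 6 of 10 alternatives, both of the other scalings named above included. Cyba minus Cybb was 0.25 with an error of 0.44, and Cyba minus Nox4 was 0.10 with an error of 0.35, so no unequal change among the 3 genes was detectable.

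Marker lists of cells that express these oxidases had unequal medians. The microglia list had a median of -0.08 over 15 genes, 7 of them above 0 and 8 below. At least 2-fold lower were 3 and higher 0, with Fcrls at -2.39 and Aif1 at -1.29. Olfml3, at 0.05 on its brightest probe, was at -2.71 on its other probe. Cybb minus the microglia median was -0.04. Border macrophage markers had a median of -1.80 over 6 genes, all at least 2-fold lower, with Lyve1 at -2.83 and Pf4 at -2.40, while Cd163 did not pass the background call on any array. Blood cell and neutrophil markers had a median of -3.65 over 10 genes, 8 of them 2-fold lower, with S100a9 at -4.39 and S100a8 at -4.34. Their summed signals were 4977 in sham and 1159 in 5/6Nx for border macrophages, and 307882 and 23242 for blood. Cybb, which phagocytes in blood and at brain borders also express, lay 1.69 and 3.53 above these medians. It read 28.4 in sham, and the lowest signal called well above background in 5/6Nx was 18.8. A fall in Cybb as large as these medians could therefore not have been measured, and the gaps say nothing on these cells. The part of these cells in its value was not tested. Nox4 lay 0.06 above the mural cell median of -0.03. Of the 10 mural markers 4 lay above 0 and 6 below. Those furthest from 0 were the channel subunit genes Abcc9 and Kcnj8, at 1.02 and 0.86.

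**Figure D3:**
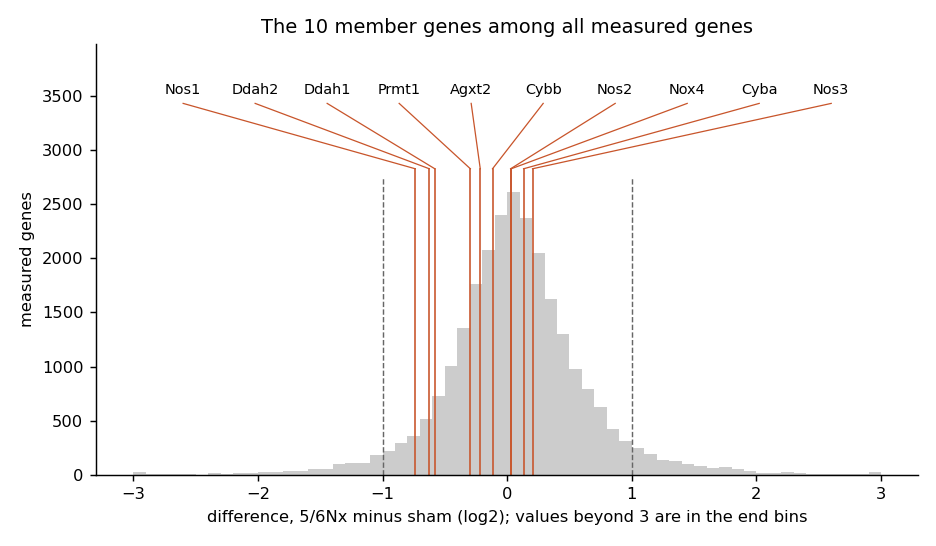
Histogram of the differences of the 25917 measured genes, 5/6Nx minus sham on the log2 scale, with a line for each of the 10 genes and dashed lines at 2-fold; the vertical axis counts genes. Nos1, Ddah2 and Ddah1 lie in the lower flank, with 6.10%, 8.02% and 9.04% of all genes at or below them, and the other 7 lie in the central mass, where the sign of values above 0 depends on the scaling.

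The wider pathway was described by 7 lists with 95 genes, of which 88 were measured, each counted by its brightest probe. None was at least 2-fold higher (0 genes) and 6 were at least 2-fold lower (6.82%, against 8.18% of all genes in either direction and 3.29% lower), with a median of -0.05. At this scaling no list held more than 1 of the 6.

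Of 12 genes for partners and scaffolds of the NO synthases, 6 lay above 0 and 6 below, with a median of 0.07. Dynll1, a dynein light chain that binds Nos1, read 3361 in sham and 824 in 5/6Nx (-1.83) and was the 1 gene past 2-fold. Cav1, the caveolin that holds Nos3 in caveolae, read 71.4 and 103 (0.74). Thus the median of the list was near 0 while 1 Nos1 partner was lower, on 1 probe. Nos1ap, also in this list and named here not by rule, was higher at its 2 probes (0.56 and 0.88).

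Tetrahydrobiopterin, the cofactor without which NO synthases make superoxide, had 8 genes of synthesis and recycling, all measured. Their median was -0.31, with 6 below 0 and none past 2-fold (0 higher, 0 lower) at the brightest probe of each gene. Qdpr, at -0.46 on that probe, was at -1.14 on its other probe. Gch1, which catalyses the first and limiting step, read 266 in sham and 399 in 5/6Nx (0.79). Gchfr, its feedback regulator, read 545 and 320 (-0.57), so the enzyme and its regulator lay on opposite sides of 0.

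For arginine supply and breakdown, 12 of 14 genes were measured, 6 above 0 and 6 below, with a median of -0.06 that ran from -0.28 to 0.09 over the alternatives. The cationic amino acid transporter Slc7a3 read 2897 in sham and 724 in 5/6Nx (-1.80), and its relative Slc7a2 read 61.0 and 28.3 (-0.91). Both carry arginine into cells. In this list 2 genes were past 2-fold under quantile, median, spike-in and lowess scaling and in the authors' table.

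Downstream of NO, the genes for its receptor guanylyl cyclase and for the kinases and phosphodiesterases of cyclic GMP had a median of -0.38. Of these, 14 of 17 lay below 0, where 55.4% of all measured genes lay above 0. In this list only Prkg2, a cyclic GMP-dependent protein kinase, was past 2-fold at its brightest probe, at 814 in sham and 228 in 5/6Nx (-1.64). Pde1c, at -0.36 on its brightest probe, was at -1.07 on its other probe. Gucy1a1, the alpha subunit of the NO receptor, read 4854 and 2195 (-0.94). Over the 10 alternatives the median of this list ran from -0.60 to -0.30.

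Of the other arginine methyltransferases and dimethylarginine handling genes, 12 of 15 were measured, 6 on each side of 0, with a median of 0.05. Slc22a2, an organic cation transporter that takes up ADMA, read 243 in sham and 24.4 in 5/6Nx (-3.11). Prmt2 read 23216 and 13903 (-0.54). Slc47a1, a transporter that exports organic cations and is named here after its values were seen, was well above background in sham only, at 77.3 against 11.6, and at least 3.58-fold lower in 5/6Nx, taken against the lowest signal well above background there.

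Of the other NADPH oxidase subunits, 15 of 17 were measured, 11 above 0 and 4 below, with a median of 0.09 that was -0.13 under spike-in scaling; Nox3 and Duoxa2 were not well above background. Sh3pxd2b, a scaffold related to the p47phox organiser, read 300.2 in sham and 121 in 5/6Nx (-1.10, and not past 2-fold under every alternative), and Noxo1, the organiser of NOX1, read 496 and 839 (0.96). In the list on superoxide and peroxide all 12 genes were measured, with a median of -0.10 and 7 below 0. The 1 gene past 2-fold at its brightest probe was Xdh, which makes rather than removes these oxidants, as xanthine oxidoreductase. It read 727 in sham and 128 in 5/6Nx (-2.30). Prdx6, at -0.28 on its brightest probe, had 4 measured probes, the lowest at -1.57. The peroxidase Prdx2 read 66057 and 35832 (-0.68).

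**Figure D4:**
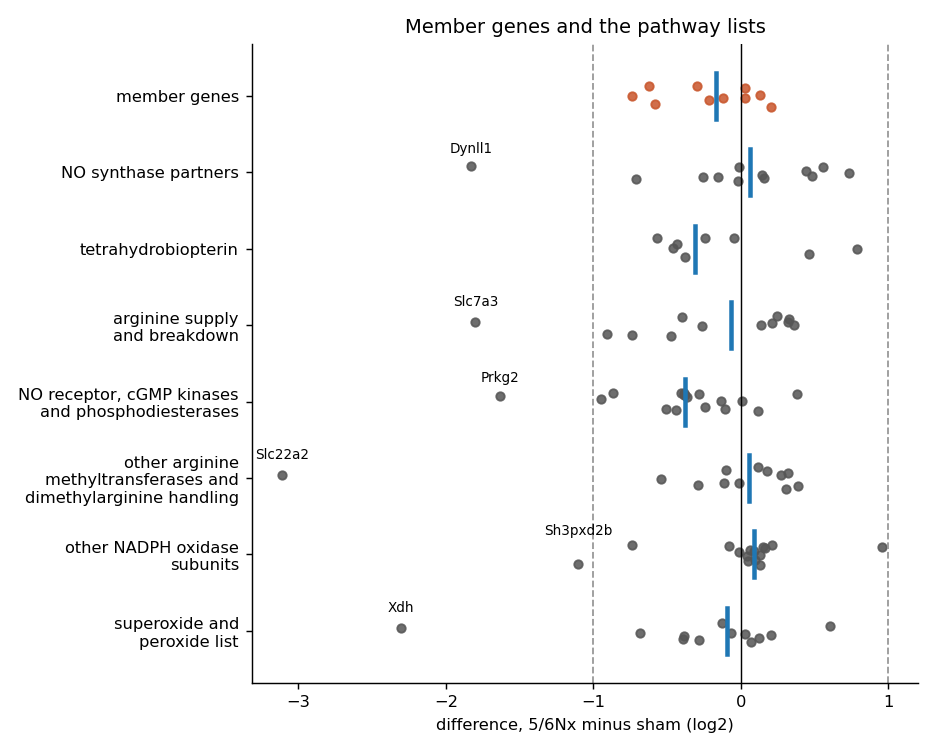
Differences, 5/6Nx minus sham on the log2 scale, of the 10 genes (top row) and of the 88 measured genes of 7 pathway lists, with a bar at each median, dashed lines at 2-fold and names of genes past it. The 6 named genes all lie below -1, and the medians run from -0.38 to 0.09; those above 0 are negative under spike-in scaling.

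The medians of marker lists for tissues next to the hippocampus lay further from 0 than any of the 10 genes. Choroid plexus markers were higher in 5/6Nx in 13 of 14 measured genes by at least 2-fold (median 2.11; Ttr 6.66, Clic6 4.90), with summed signals of 27877 in sham and 289970 in 5/6Nx. Leptomeningeal fibroblast markers were lower in 11 of 13 (median -1.99; Slc22a6 -2.61, Aldh1a2 -2.59), with summed signals of 89618 and 21979. The part of these tissues in the values of the 10 genes, and in those of Slc22a2 and Xdh, was not tested.

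**Figure D5:**
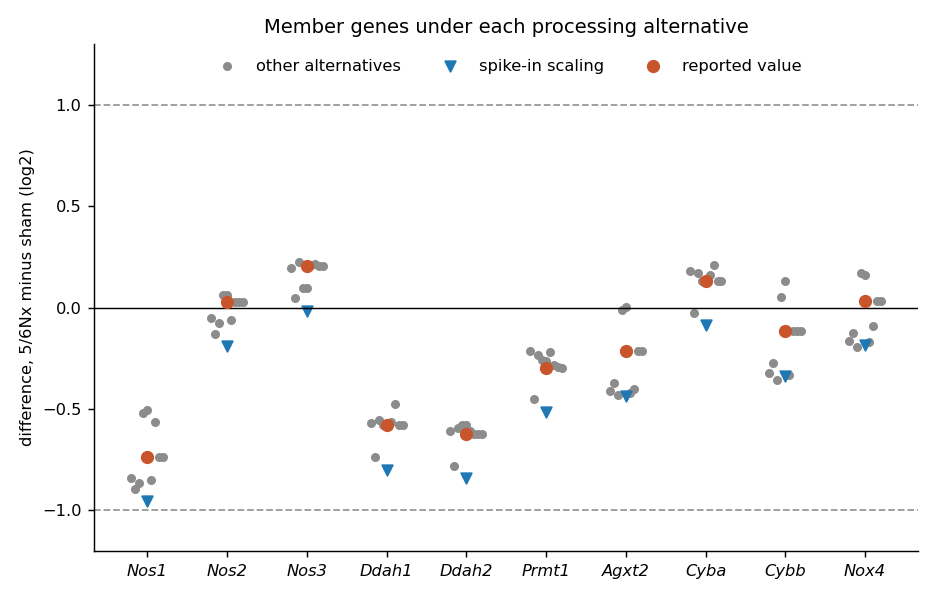
Difference of each of the 10 genes, 5/6Nx minus sham on the log2 scale, as reported (large circles), under spike-in scaling (triangles) and under 9 other processing alternatives (small circles), with dashed lines at 2-fold. Nos1, Ddah1, Ddah2 and Prmt1 lie below 0 throughout, the other 6 genes change sign under at least 1 alternative, and under spike-in scaling 0 of the 10 lie above 0.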

How the data were processed

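The deposited scanner files hold linear intensity per spot of 1-colour Agilent 60-mer arrays, 1 per group. Per the file headers, the authors extracted them with Feature Extraction 10.7.1.1, while the submitters' processing notes name 9.5.1.1; the processed intensity is background-subtracted and detrended within an array and not normalized between arrays. The authors' deposited table of normalized intensity was an alternative.

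Control and outlier spots (105 in sham, 97 in 5/6Nx) were left out. In 5/6Nx 72.5% and in sham 72.7% of spots were well above background, and 0 were saturated. Spot values were put on the log2 scale and centred on the 75th percentile of their array (numpy 2.4.6, pandas 2.3.3; limma 3.58.1 for normexp), and spots of a probe were averaged. The brightest probe well above background stands for a gene, measured when it is so on both arrays. Members were found by the files' gene names. For the lists, probes were named by RefSeq accession (27235), symbol (3581) or synonym (565) through a table of GRCm38.p6 genes, used for names only, and otherwise by the file (24300). Scanner errors are those of the extraction software, propagated to log2. With 1 array per group, their number limits the precision and no interval between animals can be given.

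The members and lists were chosen with earlier results of these data known. Named are all members with every probe, in each pathway list the genes at least 2-fold apart or, where fewer than 2 were, the 2 furthest from 0, and in each cell type list the 2 furthest from 0 and those not above background. List genes named for a further probe past 2-fold are outside this rule. The arithmetic was tested on simulated data. The alternatives were quantile, median and spike-in scaling, lowess (span 0.3), normexp (offset 50), no background subtraction, the authors' table, the mean over probes, outlier spots kept, 2 other filters on dim probes, and thresholds of 1.5-fold and 3-fold. Probes towards the end of a transcript are not shown as sequence.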

Additional observations from a re-analysis of the deposited data

How the results depend on the processing

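No paired analysis was possible because there is only 1 array per condition, and so no replicate could be left out. Nos1, Ddah1, Ddah2 and Prmt1 kept their sign under the 10 alternatives that give a value per gene. The count of the 10 genes at least 2-fold apart was 0 in each direction under every alternative at 2-fold and 3-fold. At 1.5-fold 2 were lower, a count taken at the reported processing only. With normexp neither of these, Nos1 (-0.52) and Ddah2 (-0.58), reached 1.5-fold. Under spike-in scaling Ddah1 (-0.80) passed it too. The median of the 10 genes, -0.17, was -0.38 under spike-in scaling, 0.02 with normexp and 0.03 without background subtraction. Over all measured genes 1268 were at least 2-fold higher and 852 lower. These counts were 797 and 1413 under spike-in scaling, 683 and 497 with normexp, 635 and 468 without background subtraction, 2590 and 1668 without the filter on dim probes, 319 and 305 among genes above the median signal, 3549 and 2313 at 1.5-fold, and 387 and 245 at 3-fold. The share of 2-fold differences that were higher was 59.8%, and 49.7% with quantile normalization, 49.4% in the authors' table, 47.9% with lowess, 42.3% with median scaling and 36.1% with spike-in scaling; the cause was not tested. Over the alternatives at 2-fold the number of genes past it ran from 2 to 5 for interneuron markers, from 0 to 3 for the NO receptor and cyclic GMP list, from 1 to 2 for the arginine list and from 0 to 2 for the dimethylarginine list. Signal limits Agxt2, Cybb and Nox4, whose probes lay near background.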
